A study of Mus musculus with 10 samples.

Results

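The genes described here are the 10 mouse genes that encode the plasma membrane calcium ATPases (Atp2b1, Atp2b2, Atp2b3 and Atp2b4), the ryanodine receptors (Ryr1, Ryr2 and Ryr3) and the IP3 receptors (Itpr1, Itpr2 and Itpr3), out of 54838 gene identifiers counted. They were chosen by gene symbol, and each symbol matched 1 identifier. The libraries were translating ribosome affinity purification (TRAP) precipitates, in which an EGFP-tagged ribosomal protein L10a is pulled down with its bound mRNA. Male C57BL/6 mice of about 10 weeks, all of the genotype MC-TRAP (Drd2-Cre;Eef1a1LSL.eGFPL10a/+), gave 5 dorsal and 5 ventral hippocampal libraries, with no treatment and no mice without the transgenes. Each library pooled tissue from 5 mice, so a replicate is a pool. Hippocampi of 25 mice were divided by length into a dorsal and a longer ventral part, so both groups came from the same animals. Whether libraries of equal number shared their mice is not stated. The Drd2-Cre driver marks hilar mossy cells and also GABAergic interneurons and neurons of the ventral subiculum. The paper describes the tagged interneurons as sparse, and its limitations state that a substantial subset of such interneurons can be captured. Tissue at the medial side of the ventral pole, where the ventral subiculum lies, was trimmed off at dissection, and remnants of it are possible.

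Neurons keep resting cytosolic calcium low by pumping it out of the cell and into the endoplasmic reticulum. Plasma membrane calcium ATPases, activated by calmodulin, use ATP to extrude calcium across the cell membrane. Ryanodine receptors and IP3 receptors are the large tetrameric channels through which the endoplasmic reticulum releases calcium, the former opened by cytosolic calcium itself (or, for the skeletal muscle form encoded by Ryr1, by coupling to a voltage sensor) and the latter by IP3, which phospholipase C makes after receptor activation. In the hippocampus both kinds of channel take part in calcium-induced release in dendrites, spines and terminals.

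Counts on genes ranged from 11138676 to 20594364 per library, and 3 counts corresponded to 0.142 to 0.282 CPM (counts scaled to a common library size by TMM). The share of read pairs that fell outside annotated genes was 21.8 to 33.9% in dorsal and 11.6 to 19.3% in ventral libraries. Among the tested genes annotated as intronic or still unclassified transcripts, 544 of 926 (58.7%) were dorsal-enriched, against 11.4% of the 13549 protein-coding genes. A list of 9 interneuron markers summed to 3362 to 4487 CPM in dorsal and 4111 to 5356 CPM in ventral libraries, above the 813 to 909 and 1281 to 1594 CPM of 7 mossy cell markers. Most of the interneuron sum was Gad2 (2853 ± 453 CPM in dorsal and 3174 ± 407 in ventral libraries), without which it was 972 to 1071 and 1336 to 1752 CPM, with no overlap. The mossy cell sum without Calb2, which was 65.2 ± 9.32 in dorsal and 616 ± 94.6 CPM in ventral libraries, was 747 to 835 and 753 to 867 CPM. The mossy cell marker Csf2rb2 was near 0 in both groups. Of 7 oligodendrocyte markers, 4 were dorsal-enriched, and their sum was 2440 to 2908 CPM in dorsal and 906 to 1725 CPM in ventral libraries. Of the other lists, the tested markers were dorsal-enriched in 1 and ventral-enriched in 2 of 6 for mossy cells, ventral-enriched in 3 of 9 for interneurons, and dorsal-enriched in 3 and ventral-enriched in 1 of 7 for astrocytes. Of the 9 interneuron markers, 6 were lower and 0 higher in dorsal libraries at an unadjusted edgeR p below 0.05. The 5 granule cell markers, of which 1 was dorsal-enriched and 3 were higher in dorsal libraries at an unadjusted edgeR p below 0.05, summed to 827 to 871 CPM in dorsal and 469 to 815 CPM in ventral libraries, with no overlap. A single marker was dorsal-enriched for microglia (1 of 6) and ventral-enriched for mural and smooth muscle cells (1 of 5), and edgeR and DESeq2 called 0 markers for pyramidal cells, oligodendrocyte precursors and endothelial cells, of which 1, 0 and 0 had an unadjusted edgeR p below 0.05. The part of these differences in the results below was not tested. One alternative fit took the share outside genes as a covariate. That share did not overlap between the groups, so the fit cannot tell it apart from dorsal or ventral origin. In libraries of this kind, fewer cells of a type and less RNA per cell cannot be told apart.

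The RefSeq promoter table (GRCm38.p6) held 10 start sites for 7 of the 10 genes, with no entry for Atp2b3, Ryr3 or Itpr1. The 250 bases before 4 of these starts are shown because they belong to genes that moved by very different amounts: Ryr2, Ryr1 and Atp2b4 were dorsal-enriched, and Itpr2 was not called. Each is written 5' to 3' on the minus strand, which carries all 4 genes, and capitals mark the GC box GGGCGG or its complement CCGCCC.
Ryr2, chr13:12106946-12107195: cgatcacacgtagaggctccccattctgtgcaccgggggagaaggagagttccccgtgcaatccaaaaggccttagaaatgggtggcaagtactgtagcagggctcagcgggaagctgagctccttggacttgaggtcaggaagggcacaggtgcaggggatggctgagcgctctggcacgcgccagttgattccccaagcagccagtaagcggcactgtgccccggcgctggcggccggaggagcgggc
Ryr1, chr7:29125152-29125401: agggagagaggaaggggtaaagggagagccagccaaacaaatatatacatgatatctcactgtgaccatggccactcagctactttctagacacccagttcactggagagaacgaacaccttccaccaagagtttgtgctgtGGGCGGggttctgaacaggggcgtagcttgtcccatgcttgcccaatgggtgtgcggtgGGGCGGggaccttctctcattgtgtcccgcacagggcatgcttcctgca
Atp2b4, chr1:133753748-133753997: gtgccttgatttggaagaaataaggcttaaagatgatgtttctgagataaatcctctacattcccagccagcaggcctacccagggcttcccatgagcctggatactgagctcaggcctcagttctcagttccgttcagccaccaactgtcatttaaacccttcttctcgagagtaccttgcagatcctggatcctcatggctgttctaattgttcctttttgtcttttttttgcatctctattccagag
Itpr2, chr6:146502224-146502473: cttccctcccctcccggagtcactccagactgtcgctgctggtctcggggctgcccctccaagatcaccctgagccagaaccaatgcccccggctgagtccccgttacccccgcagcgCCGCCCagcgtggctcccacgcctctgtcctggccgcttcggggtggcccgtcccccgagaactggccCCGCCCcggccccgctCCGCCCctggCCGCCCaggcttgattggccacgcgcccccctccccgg
Ryr2 and Atp2b4 had no GC box in this window, Ryr1 had 2 and Itpr2 had 4, while 32.7% of the 32851 windows in the table held at least 1. GC content was 63.2% for Ryr2, 54.8% for Ryr1, 45.6% for Atp2b4 and 74.4% for Itpr2, around a median of 52.4% over the table. The GC-rich windows before the 2 Atp2b1 starts had 4 and 3 GC boxes. An E-box, CANNTG on either strand, was found 2 times before Ryr2 and 1 time before Atp2b4 but not before Ryr1, and 66.2% of all windows had one. The half-site TGACG of a cyclic AMP response element, present in 17.8% of windows, and the TATA box TATAAA, present in 12.4%, occurred in none of the 10 member windows on either strand. No motif searched was therefore common to the windows of the dorsal-enriched members. The Atp2b4 window overlapped annotated exons by 2 bases and the Ryr1 window by 28. The windows of Ryr2, Ryr1 and Itpr2 lie at the annotated 5' ends of their genes. That of Atp2b4 belongs to an internal start, as the 5' end of the gene is at 133801041. Its GC content and motifs are therefore not those of the sequence before that end.

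The comparison of dorsal with ventral libraries gave higher levels of most of these genes in dorsal libraries and called none of them lower. Of the 10 members, 9 passed the expression filter (CPM above 1 in at least 2 libraries), and 6 were called dorsal-enriched by edgeR's quasi-likelihood test (adjusted p below 0.05 over 16806 tested genes and an absolute log2 ratio above 0.58), while 0 were ventral-enriched. DESeq2 gave the same counts, and 7 members were higher and 0 lower in dorsal libraries at an unadjusted edgeR p below 0.05. Ryr1 passed the filter through the dorsal libraries, since 1 ventral library alone had over 1 CPM. Over all tested genes 15.7% were dorsal-enriched and 9.85% ventral-enriched. In 7 members every dorsal library lay above every ventral library, a pattern of 9.81% of tested genes, and in 0 members the reverse, a pattern of 8.36%. The median log2 fold change (log2FC, dorsal over ventral) of the 9 tested members was 0.89, against -0.0044 for all tested genes. Earlier results of these data were known when the members were chosen, so these comparisons with all tested genes are descriptive. By family, 3 of 4 plasma membrane pumps, 3 of 3 ryanodine receptors and 0 of 2 tested IP3 receptors were called by edgeR or DESeq2, where 1 IP3 receptor gene had an unadjusted edgeR p below 0.05. The plot of member levels shows all 10 genes in all libraries.

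**Figure D1:**
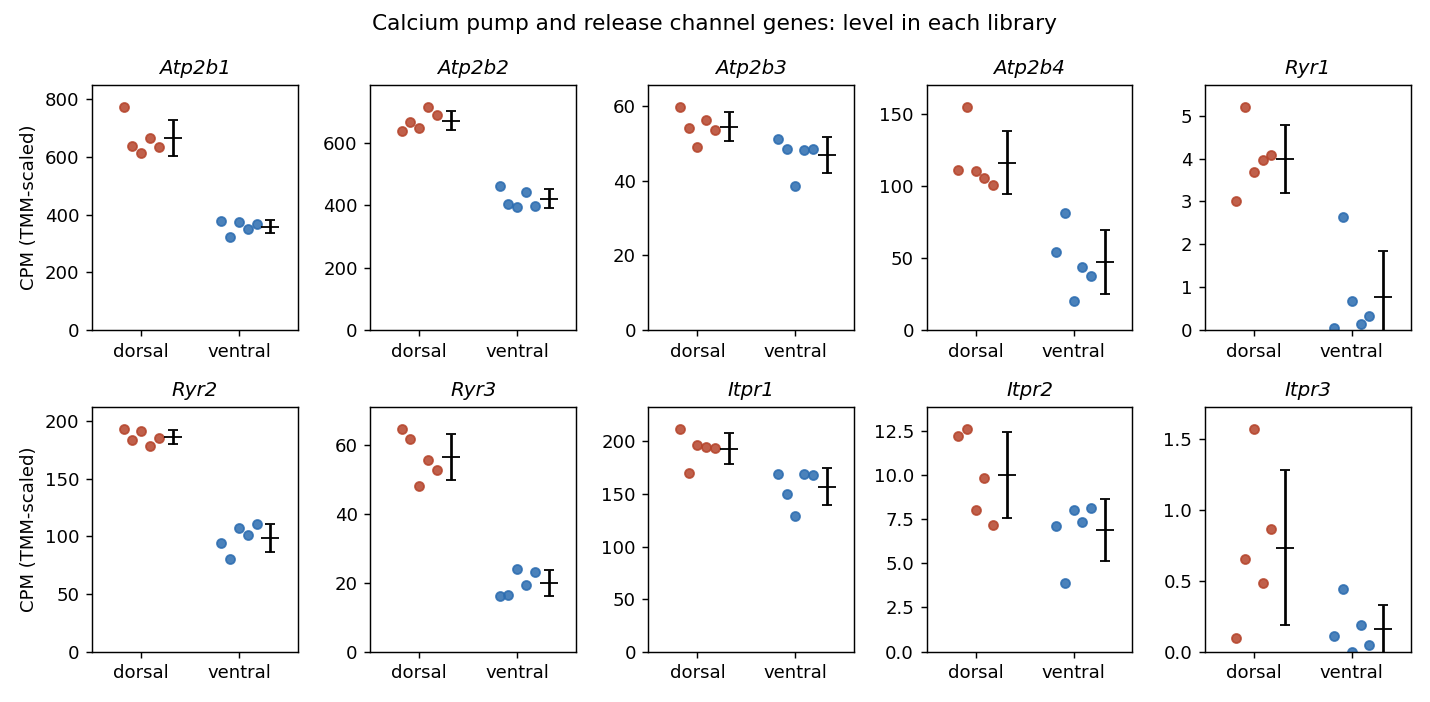
Level of each of the 10 genes in CPM (linear axis from 0, its own scale for each gene) in the 5 dorsal and 5 ventral libraries, with replicates 1 to 5 from left to right. Points are libraries and black marks the mean with its SD, cut off at 0; the groups are apart in 7 genes and overlap in Atp2b3, Itpr2 and Itpr3.

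Among the plasma membrane pumps, Atp2b1 (ENSMUSG00000019943, chromosome 10 from 98914406 to 99026143, plus strand of GRCm38) encodes the pump found in nearly all cells. Its level was 772, 637, 615, 665 and 634 CPM in the dorsal libraries and 377, 323, 374, 349 and 367 CPM in the ventral ones, always listed from replicate 1 to 5. The lowest dorsal library was well above the highest ventral one. The means were 665 ± 62.8 and 358 ± 22.5 CPM (SD, n = 5 each), a log2FC of 0.89 (standard error, SE, 0.090, edgeR adjusted p = 2.56e-05). With offsets for GC content and exonic length, which shifted the median of all genes by -0.132, the log2FC was 0.57 (edgeR adjusted p = 0.000248) and no longer passed the fold threshold.

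Atp2b2 (ENSMUSG00000030302, chromosome 6 from 113743831 to 114042613, minus strand) encodes a fast pump of neurons and hair cells. It measured 637, 668, 649, 715 and 689 CPM in dorsal and 462, 405, 395, 443 and 399 CPM in ventral libraries. The groups did not overlap, and the spread within each was small. Means of 672 ± 31.2 and 421 ± 29.8 CPM gave a log2FC of 0.67 (SE 0.082, edgeR adjusted p = 9.50e-05).

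Atp2b4 (ENSMUSG00000026463, chromosome 1 from 133699457 to 133801041, minus strand) encodes a widely expressed pump that has been studied most in erythrocytes, heart and sperm. It had the largest fold change of the pumps, with 111, 155, 110, 105 and 100.3 CPM in dorsal and 53.9, 80.8, 20.01, 43.8 and 37.6 CPM in ventral libraries. Replicate 2 was the highest library of each group, and ventral replicate 3 was the lowest of all. The log2FC was 1.31 (SE 0.25, edgeR adjusted p = 0.00176), with means of 116 ± 21.9 and 47.2 ± 22.5 CPM. Its call was lost with the share outside genes as a covariate (log2FC 1.595, SE 0.52, edgeR adjusted p = 0.0749). There the fold change was larger and the SE wider than in the reported fit.

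Atp2b3 (ENSMUSG00000031376, chromosome X from 73503086 to 73571005, plus strand), whose fast pump is largely restricted to neurons, was the pump gene that was not called. Its levels were 59.7, 54.1, 49.0, 56.2 and 53.7 CPM in dorsal and 51.1, 48.5, 38.6, 48.3 and 48.5 CPM in ventral libraries. The highest ventral library exceeded the lowest dorsal one. The log2FC was 0.21 (SE 0.12, edgeR adjusted p = 0.182).

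All 3 ryanodine receptor genes were dorsal-enriched. Ryr2 (ENSMUSG00000021313, chromosome 13 from 11553102 to 12106945, minus strand), the form known from heart and the main one of most brain regions, had 193, 183, 191, 178 and 185 CPM in dorsal and 93.9, 80.4, 107, 102 and 111 CPM in ventral libraries. The dorsal libraries lay within a narrow range, far above the ventral ones. Its log2FC was 0.91 (SE 0.10, edgeR adjusted p = 5.76e-05), with means of 186 ± 6.20 and 98.8 ± 12.1 CPM.

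Ryr3 (ENSMUSG00000057378, chromosome 2 from 112631355 to 113217096, minus strand) encodes the form known from brain, including the hippocampus, and from smooth muscle. It had 64.5, 61.7, 47.9, 55.4 and 52.7 CPM in dorsal and 16.0, 16.3, 24.1, 19.4 and 23.2 CPM in ventral libraries. Each dorsal library was above every ventral library by a wide margin. The means of 56.5 ± 6.72 and 19.8 ± 3.76 CPM differed by a log2FC of 1.504 (SE 0.15, edgeR adjusted p = 2.48e-05). Of its exonic length 4.83% is shared with Aven, a protein-coding gene on the opposite strand, and the counting is not stated to use strand. Aven itself had 7.36 ± 0.729 CPM in dorsal against 8.85 ± 1.66 CPM in ventral libraries and was not called.

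Ryr1 (ENSMUSG00000030592, chromosome 7 from 29003344 to 29125179, minus strand), the skeletal muscle form, was rare. Dorsal replicates 1 to 5 held 32, 80, 54, 66 and 52 counts and ventral replicates 1 to 5 held 1, 30, 8, 2 and 7 counts. In CPM these were 3.01, 5.20, 3.68, 3.96 and 4.09 in dorsal and 0.0555, 2.64, 0.675, 0.126 and 0.330 in ventral libraries, so that ventral replicate 2 stood close to the dorsal group and the ventral libraries of 1 and 2 counts lay below the floor of 3 counts. The log2FC was 2.70 (SE 0.59, edgeR adjusted p = 0.00301) and 3.87 without ventral replicate 2. The call was lost with the share outside genes as a covariate (log2FC 2.43, SE 1.05, edgeR adjusted p = 0.170). The antisense gene Gm26604, which shares 864 exonic bases with Ryr1, had at most 2 counts in any library.

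Neither of the tested IP3 receptor genes was called. Itpr1 (ENSMUSG00000030102, chromosome 6 from 108213096 to 108551109, plus strand), the main neuronal form, had 212, 170, 196, 194 and 193 CPM in dorsal and 169, 150, 129, 169 and 168 CPM in ventral libraries. The groups were apart, but dorsal replicate 2 was within 1 CPM of the highest ventral library. The log2FC of 0.29 (SE 0.10, edgeR adjusted p = 0.0430) passed the threshold on p and not that on fold, and it was 0.13 (edgeR adjusted p = 0.329) with offsets for GC content and length.

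Itpr2 (ENSMUSG00000030287, chromosome 6 from 146108299 to 146502223, minus strand), known as the main form of astrocytes, had 12.2, 12.6, 8.04, 9.85 and 7.15 CPM in dorsal and 7.10, 3.87, 8.02, 7.34 and 8.12 CPM in ventral libraries. The groups overlapped, and ventral replicate 2 was the lowest library. Its log2FC was 0.50 (SE 0.24, edgeR adjusted p = 0.123). Sums of the 7 astrocyte markers overlapped too (dorsal 283 to 373, ventral 246 to 403 CPM), but single markers moved in opposite directions. Aqp4 (41.0 against 23.4 CPM), Gfap (30.5 against 18.2) and Slc1a3 (49.8 against 31.0) were dorsal-enriched, and Aldh1l1 (1.17 against 4.16) was ventral-enriched. Aldoc, the most abundant of them, had 133 ± 16.7 CPM (dorsal) against 196 ± 30.7 (ventral) and was not called. The part of astrocytes in the Itpr2 values was not tested. Itpr3 (ENSMUSG00000042644, chromosome 17 from 27057304 to 27122223, plus strand), a form of epithelial and other non-neuronal cells, failed the filter, with 1, 10, 23, 8 and 11 counts in dorsal and 2, 5, 0, 3 and 1 counts in ventral libraries. With no filter it was tested and called dorsal-enriched (log2FC 2.35, SE 0.82, edgeR adjusted p = 0.0350), although its groups overlapped and 5 of the 10 libraries were at or below the floor of 3 counts.

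**Figure D2:**
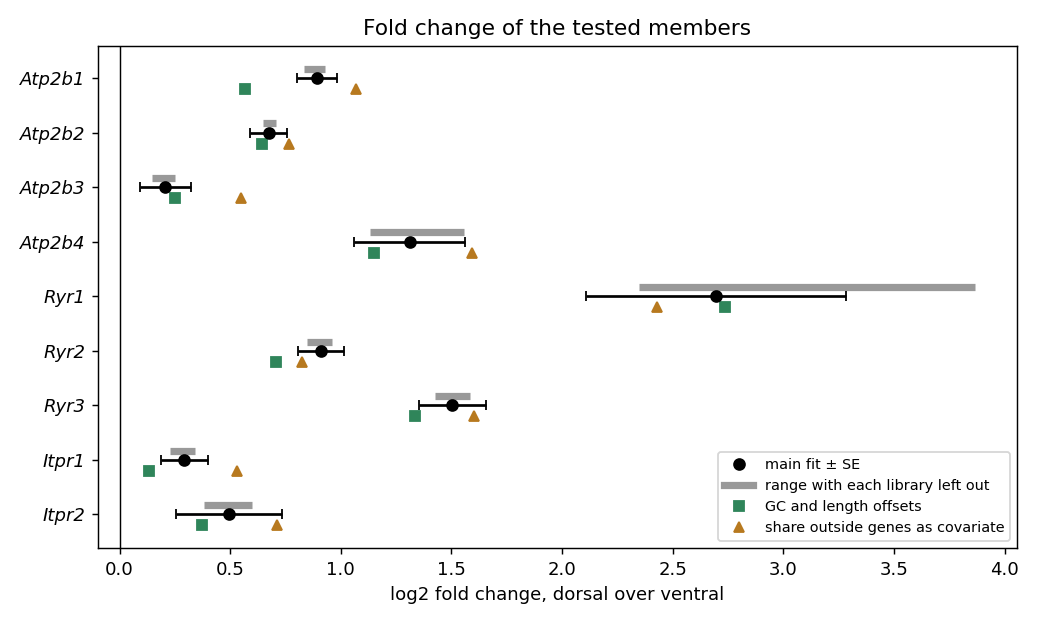
Log2FC of dorsal over ventral libraries for the 9 tested members (black points with 1 SE), with the range over leaving out each library (grey bars) and the values with offsets for GC content and length (green squares) or with the share outside genes as a covariate (brown triangles). All values were above 0, the range was widest for Ryr1 (2.35 to 3.87), and the offsets moved Atp2b1 from 0.89 to 0.57.

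Among tested genes with at least 4820 exonic bases, the length of the shortest member (Atp2b3), 15.2% of 6722 were dorsal-enriched and 6.56% ventral-enriched. Among the 10078 shorter genes these shares were 16.0% and 12.05%, and the median log2FC was 0.089 for the longer and -0.090 for the shorter genes. Reads from introns could not be told from exonic reads in counts per gene, but some annotated transcripts that lie within introns of members, on the same strand, were counted on their own. With over 3 counts in any library there were 5 of these. Within Ryr2, Gm47493 had 5 to 47 counts in dorsal libraries and 0 in each ventral library, and Gm47494 had 0 to 17 and 0 to 1, while Gm44167, within Atp2b2, had 6 to 39 and 0 to 1. Ryr2 itself had 913 to 2962 and Atp2b2 4602 to 11904 counts in single libraries. None of these counts is scaled to length, so they do not measure the intronic share of a member's reads, which was not tested. Within Itpr2, Gm44086 had 2 to 31 counts in dorsal and 2 to 27 in ventral libraries. The processed pseudogene Gm15720, also within Itpr2, had 84 to 312 counts in dorsal and 197 to 481 in ventral libraries, more than the 44 to 194 of Itpr2 itself, and was ventral-enriched (log2FC -1.03, SE 0.30, edgeR adjusted p = 0.0181). With the share outside genes as a covariate, 4 members remained called (Atp2b1, Atp2b2, Ryr2 and Ryr3). Dorsal-enriched genes over all tested genes fell from 2636 to 834 in that fit, and ventral-enriched genes from 1655 to 339.

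Levels per kilobase of exonic sequence, which allow genes to be compared with each other, put Atp2b2 and Atp2b1 first in both groups. In dorsal libraries Atp2b2 had 53.2 ± 2.48 and Atp2b1 43.7 ± 4.13 CPM per kilobase, and their libraries overlapped. In ventral libraries they had 33.4 ± 2.36 and 23.5 ± 1.48 CPM per kilobase, with no overlap. Atp2b3, Itpr1 and Atp2b4 followed in that order in both groups, at 11.3, 10.5 and 9.49 CPM per kilobase in dorsal and 9.75, 8.57 and 3.86 in ventral libraries. Neighbours among these overlapped, except Itpr1 and Atp2b4 in ventral libraries. Ryr2 came next with 6.47 ± 0.215 and 3.43 ± 0.421 CPM per kilobase, apart from Atp2b4 in dorsal and overlapping it in ventral libraries. Ryr3 (2.98 and 1.04), Itpr2 (0.674 and 0.466), Ryr1 (0.183 and 0.0351) and Itpr3 (0.0811 and 0.0175) closed the order, with overlap between Ryr1 and Itpr3 only.

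Because every gene in a library shares its scaling, ratios of family members to each other ask whether the composition of a family differed between the groups. Of 7 log2 ratios of counts within families, 2 differed between dorsal and ventral libraries by a two-sided exact permutation test at an adjusted p below 0.05. Each of these 2 missed that threshold in 7 of 12 alternatives, all with 1 library left out (exact permutation, adjusted p = 0.0556). Relative to Ryr2, Ryr3 was higher in dorsal libraries, with log2 ratios of -1.58, -1.57, -1.998, -1.68 and -1.81 in dorsal and -2.55, -2.30, -2.15, -2.38 and -2.26 in ventral replicates. The difference was 0.60 (exact permutation p = 0.00794, the smallest that 5 against 5 libraries allow, adjusted over the 7 ratios 0.0278). Per kilobase, Ryr3 made up 30.9 ± 2.58% of ryanodine receptor transcripts in dorsal and 23.0 ± 1.77% in ventral libraries.

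Relative to Atp2b1, Atp2b3 was lower in dorsal libraries. Its log2 ratios were -3.69, -3.56, -3.65, -3.56 and -3.56 in dorsal and -2.88, -2.73, -3.28, -2.85 and -2.92 in ventral replicates, a difference of -0.67 (exact permutation p = 0.00794, adjusted 0.0278). Atp2b3 thus made up 9.60 ± 0.342% of pump transcripts per kilobase in dorsal and 13.8 ± 0.942% in ventral libraries. With the offsets for GC content and length, an alternative chosen after seeing the data, the difference was -0.31 and the groups overlapped (exact permutation p = 0.0159, adjusted over 6 ratios 0.0476), with shares of 10.3 ± 1.34% and 13.0 ± 0.302%. The ratio of Atp2b2 to Atp2b1 differed by -0.21 (exact permutation p = 0.0317, adjusted 0.0741) and that of Atp2b4 to Atp2b1 by 0.53 (exact permutation p = 0.222, adjusted 0.259), neither past the threshold. With the offsets the first of these turned to 0.082 (exact permutation p = 0.317, adjusted 0.373). Ryr1 to Ryr2 differed by 2.42 (exact permutation p = 0.0476, adjusted 0.0833), Itpr2 to Itpr1 by 0.24 (exact permutation p = 0.421, adjusted 0.421) and Itpr3 to Itpr1 by 1.83 (exact permutation p = 0.0714, adjusted 0.100). The Ryr1 and Atp2b4 ratios passed without ventral replicate 2 (3.19 and 0.80, exact permutation, adjusted p = 0.0185 for each), and the Atp2b2 ratio without ventral replicate 3 (-0.25, exact permutation, adjusted p = 0.0185).

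**Figure D3:**
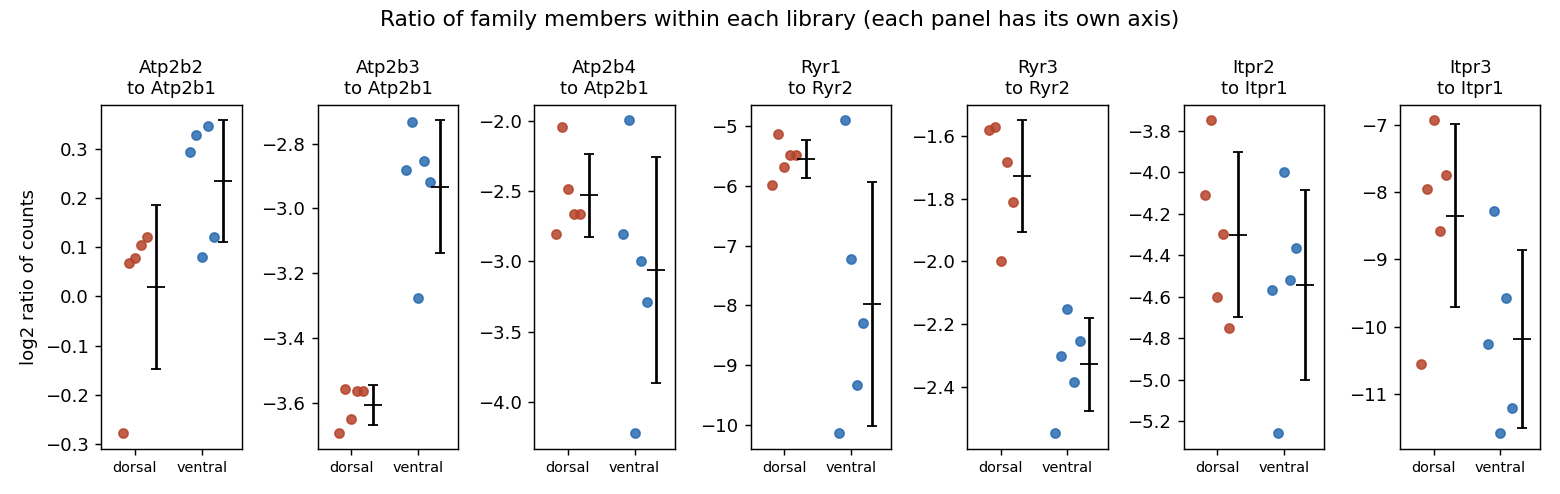
Log2 ratio of counts of each member to the reference gene of its family (Atp2b1, Ryr2 or Itpr1) in each library, with 0.5 added to both counts. Points are libraries, black marks the mean with its SD, and each panel has its own axis; the groups are apart for Atp2b3 to Atp2b1 and Ryr3 to Ryr2 and overlap in the other 5 panels.

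The rest of the calcium store machinery was described with 11 lists of 115 genes, of which 92 passed the filter. Dorsal enrichment was called for 19 of these (20.7%, against 15.7% of all tested genes). Ventral enrichment was called for 1 (1.09%, against 9.85%). Their median log2FC was 0.19. The 19 include 2 genes, Sln and Cracr2a, that passed the filter through the dorsal libraries. Earlier results of these data were known when the lists were chosen, so no excess over all tested genes can be read from these shares. With the share outside genes as a covariate (the covariate fit), 8 of the 92 list genes were dorsal-enriched and 0 ventral-enriched. That fit called 834 dorsal-enriched and 339 ventral-enriched genes over all tested genes, where the reported fit called 2636 and 1655. The 8 and 0 are to be read against these lower counts, not against 15.7% and 9.85%. Of the exchangers that extrude calcium against sodium, 3 of 7 tested were dorsal-enriched. Slc8a1, the NCX1 exchanger, had 830 ± 41.7 CPM in dorsal against 385 ± 51.7 CPM in ventral libraries (log2FC 1.11, SE 0.099, edgeR adjusted p = 1.07e-05), and 0.56 with offsets for GC content and length, which lost the call. Slc24a2, an exchanger that also moves potassium, had 889 ± 70.3 and 575 ± 47.4 CPM (log2FC 0.63), and Slc24a3 of the same family 94.1 ± 9.89 and 60.1 ± 16.2 CPM (log2FC 0.66). The call of Slc24a2 was lost with the offsets (0.39) and without dorsal replicate 1 (0.58), and that of Slc24a3 in the covariate fit (0.60, edgeR adjusted p = 0.27) and without dorsal replicate 2 or ventral replicate 3 (0.60 and 0.59). The fold threshold applies to the log2 ratio of mean CPM plus 1, so a call can be lost at a log2FC above 0.58.

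Pumps that refill the store were not called. Of the SERCA and SPCA genes 3 were tested and 0 called by edgeR or DESeq2, with 1 at an unadjusted edgeR p below 0.05. The main neuronal SERCA gene Atp2a2, named here after its values were seen, had 497 ± 43.1 CPM in dorsal against 336 ± 64.0 CPM in ventral libraries. Its log2FC of 0.57 (SE 0.12, edgeR adjusted p = 0.0041) fell just short of the fold threshold, and its dorsal libraries all lay above the ventral ones. Of 4 tested small SERCA regulators, Sln (sarcolipin) was dorsal-enriched at 3.83 ± 1.30 against 0.811 ± 0.602 CPM. Store-operated entry had 2 of 9 genes called, the channel gene Orai3 (24.1 ± 5.41 against 11.98 ± 1.95 CPM, log2FC 1.02) and Cracr2a, a calcium sensor gene that ran from 0.780 to 22.6 CPM within the dorsal libraries and overlapped the ventral ones. Sln and Cracr2a passed the expression filter through the dorsal libraries, as 1 ventral library alone had over 1 CPM for each. In the covariate fit the calls of Sln, Orai3 and Cracr2a were lost (log2FC 1.97, 0.76 and 3.07, edgeR adjusted p = 0.146, 0.24 and 0.211).

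Of 15 tested genes for IP3 receptor partners, 7 were dorsal-enriched. Homer2, a scaffold that links IP3 receptors to metabotropic glutamate receptors, had 423 ± 10.1 CPM in dorsal against 235 ± 36.4 CPM in ventral libraries (log2FC 0.85, SE 0.11, edgeR adjusted p = 0.000118). Itpripl2, named for its likeness to an IP3 receptor-interacting protein, had 17.1 ± 8.06 and 3.36 ± 1.39 CPM (log2FC 2.29). Irag1, counted under its older symbol Mrvi1 and known as a substrate of cGMP-dependent kinase at IP3 receptors, had 7.58 ± 2.87 and 1.57 ± 1.23 CPM (log2FC 2.32), a call lost in the covariate fit (log2FC 2.198, edgeR adjusted p = 0.108).

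Of 15 tested ryanodine receptor partners and junctional proteins, 2 were called. Jph1, a junctophilin that holds the store close to the cell membrane, had 56.7 ± 2.99 and 37.4 ± 2.83 CPM (log2FC 0.60), at the edge of the fold threshold. This call was lost in 8 of 27 alternatives. Jsrp1, a junctional protein gene of skeletal muscle, had 2.45 ± 1.43 and 1.05 ± 0.432 CPM (log2FC 1.31, SE 0.49, edgeR adjusted p = 0.0490). This call was lost in 13 of 27.

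Of the makers of IP3, 15 phospholipase C and G protein genes were tested and 13 were not called. Plcb4, a Gq-coupled phospholipase C, was dorsal-enriched with 240 ± 12.6 against 126 ± 25.3 CPM (log2FC 0.94, SE 0.13, edgeR adjusted p = 0.000183). Plch2, another phospholipase C, was ventral-enriched with 12.3 ± 2.03 against 21.4 ± 5.28 CPM (log2FC -0.80, SE 0.20, edgeR adjusted p = 0.00912), and its groups overlapped. Both calls were lost in the covariate fit (log2FC 0.83 and -0.42, edgeR adjusted p = 0.0548 and 0.592). That of Plch2 was lost with the offsets as well (log2FC -0.64, edgeR adjusted p = 0.0204), where its log2 ratio of mean CPM plus 1 missed the fold threshold. Of 8 enzymes that use IP3 or its products, Ippk, an inositol phosphate kinase, was dorsal-enriched (55.4 ± 5.85 against 32.3 ± 3.96 CPM). Of 6 other intracellular calcium channel genes, Tpcn1, a lysosomal two-pore channel (12.9 ± 4.55 against 3.85 ± 0.835 CPM), and Pkd2, polycystin 2 (34.6 ± 4.78 against 16.6 ± 2.89 CPM), were dorsal-enriched. The call of Tpcn1 was lost in the covariate fit (log2FC 1.92, edgeR adjusted p = 0.0553). None of the 8 tested mitochondrial uniporter genes and neither of the 2 genes for PMCA subunits was called by edgeR or DESeq2. At an unadjusted edgeR p below 0.05, 1 uniporter gene was higher and 2 were lower in dorsal libraries, and 1 PMCA subunit gene was higher.

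**Figure D4:**
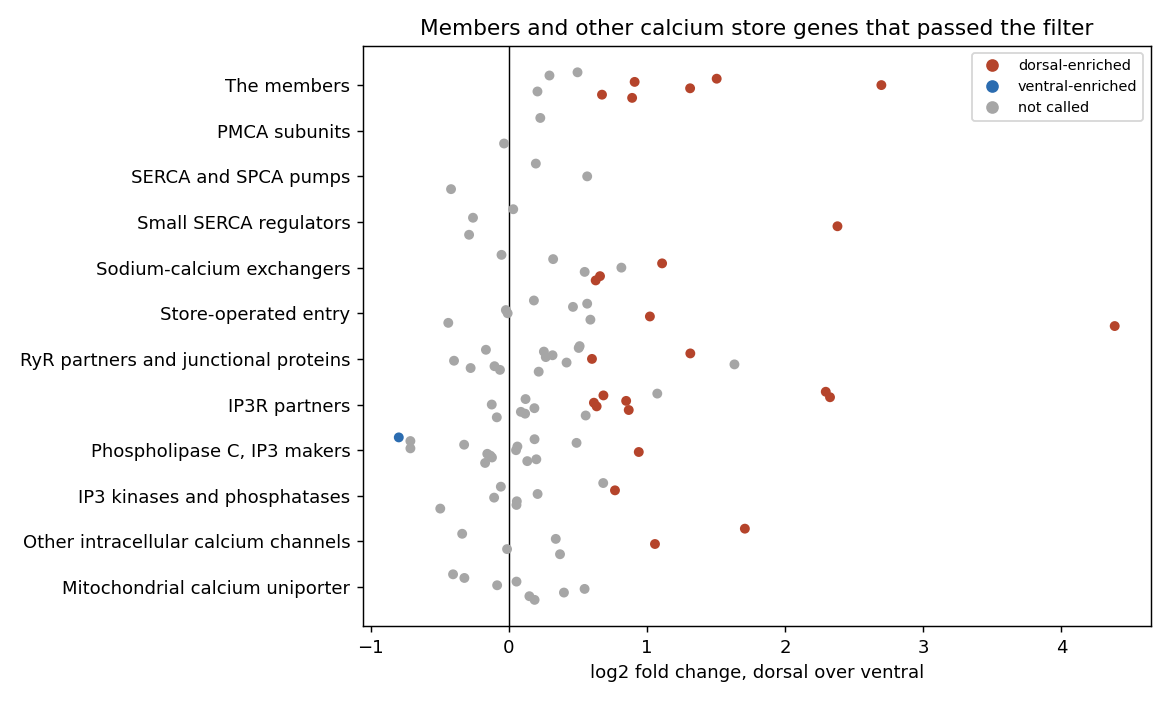
Log2FC of dorsal over ventral libraries for the 9 tested members (top line) and the 92 tested genes of 11 calcium store lists, 1 point per gene. Red points are dorsal-enriched, the blue point is Plch2, the ventral-enriched gene, and grey points were not called; points to the right of 0 were higher in dorsal libraries.

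For the most abundant member of each family, the 3 genes with the most similar profile were taken by the root mean square difference of centred log2(CPM + 1) over the 10 libraries, among 8502 protein-coding genes of at least 10 CPM. For Atp2b2 they were Fam155a (0.059), Akap9 (0.078) and Brwd3 (0.085), with mean levels of 168 against 107, 200 against 122 and 73.0 against 44.8 CPM in dorsal and ventral libraries. Nearest to Ryr2 were Lpp (0.069), Fam19a5 (0.11) and Homer2 (0.11), the last of which is also on the list of IP3 receptor partners. Those for Itpr1 were Nek6 (0.078), Cask (0.079) and 4930402H24Rik (0.080), each differing little between the groups. These distances describe the libraries and share their depth and scaling, so no test was made.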

How the data were processed

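TRAP libraries were made by the authors from 500 pg of amplified RNA (Ovation RNAseq V2, TruSeq) and sequenced as 50 bp pairs; per the submitters' processing notes, STAR 2.5.2b aligned reads to GRCm38 and HTSeq 0.7.2 counted them. The deposited values are raw counts per gene, 1 file per library; the annotation release and strand setting are not given in the sources used here, so overlapping genes are uncertain. Groups and replicate numbers came from the sample titles. Libraries of a group differed from each other by a chi-square of 4.59 to 48.8 per degree of freedom, so none was a copy of another. A second preparation of the same pool would not be seen by this. The lowest value was between dorsal replicates 4 and 5. Floors and errors of counts cover counting error only.

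The tests ran in R 4.3.3 and edgeR 4.0.16: CPM above 1 in at least 2 libraries, TMM, glmQLFit with its newer dispersion method (edgeR 3 dispersions as an alternative), Benjamini-Hochberg adjustment over 16806 genes. The fold threshold of 0.58 applied to log2 of mean CPM plus 1, dorsal over ventral. SE is the absolute fold change on the log2 scale over the root of F. Exact permutation tests used all 252 splits. GC and length offsets were fitted with mgcv 1.9.3, and DESeq2 1.42.0 was an alternative. The fits were tested on simulated data. Gene models came from GENCODE vM21, which matched 54809 identifiers.

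The members, gene lists and tests were chosen with earlier results of these data known. Named were all members, up to 3 called genes per list and direction with the largest log2 ratio, and 3 genes of similar profile for the most abundant member of each family; Atp2a2 was added after its values were seen. Marker genes of 10 cell types were summed per library.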

Additional observations from a re-analysis of the deposited data

Results flagged for a closer look

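Among 26 genes, the 10 members and 16 named genes of the lists, 52 groups of 5 libraries were searched for a library that stood apart, meaning that its gap to the nearest other library exceeded 0.71 of the whole range of its group. This was met 8 times. For normal values in independent groups about 2.6 would be met by chance. The 26 genes share the same 10 libraries and some have few counts, so no excess over chance can be read from this.

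Ventral replicate 2 was the library concerned in 3 of these. It held Ryr1 at 2.64 CPM, against 0.675 CPM in the next library, Itpr2 at 3.87 CPM, against 7.10 CPM in the next, and the exchanger gene Slc24a3 at 88.2 CPM, against 55.5 CPM. It was high for Ryr1 and Slc24a3 and low for Itpr2. Ventral replicate 3 was low for Atp2b3 at 38.6 CPM, where the others had 48.3 to 51.1 CPM, and high for Sln at 1.86 CPM, where the next had 0.704 CPM.

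Dorsal replicate 2 had Atp2b4 at 155 CPM, above a next value of 111 CPM. Dorsal replicate 1 had the exchanger gene Slc24a2 at 1013 CPM, above 877 CPM, and ventral replicate 1 had Cracr2a at 1.22 CPM, above 0.507 CPM.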

How the results depend on the processing

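The 9 tested members kept their direction in all 27 alternatives, and 6 stayed called with each library left out. Alternatives that change only a threshold on p or fold repeat the reported fit, so direction could not change in them. Atp2b1 missed the fold threshold with GC and length offsets (0.57, and 0.57 with the replicate block as well), and Atp2b4 (1.595) and Ryr1 (2.43) missed the threshold on p with the share outside genes as a covariate, which lowered the calls over all genes to 834 dorsal-enriched and 339 ventral-enriched and those of the lists to 8 and 0. One IP3 receptor was called (1 against 0) with no filter, Itpr3, and 1 with no fold threshold, Itpr1. The ventral-enriched genes of the lists, 1 in the reported fit, numbered 4 with GC and length offsets, 4 with the replicate block added to them, 4 with no fold threshold and 1 to 2 with a library left out, the 2 coming without dorsal replicate 1. Over all genes, the offsets gave 2848 ventral-enriched genes and 2912 with the block, protein-coding genes alone gave 1665 dorsal-enriched genes, and an adjusted p below 0.01 gave 1498 dorsal-enriched and 897 ventral-enriched. The cause of these changes was not tested.

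With GC and length offsets the difference of Atp2b2 to Atp2b1 turned from -0.21 to 0.082, while Atp2b3 to Atp2b1 (-0.31) and Ryr3 to Ryr2 (0.63) stayed past the threshold. With a library left out, the log2 ratio differences ran from -0.76 to -0.62 for Atp2b3 to Atp2b1, 0.54 to 0.67 for Ryr3 to Ryr2, -0.25 to -0.14 for Atp2b2 to Atp2b1, 0.24 to 0.80 for Atp2b4 to Atp2b1 and 1.88 to 3.19 for Ryr1 to Ryr2. The first pair had an adjusted exact permutation p of 0.0556 in each case but those without ventral replicate 2, 3 or 5, although their groups did not overlap.

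The same mice gave both groups, but no source says that equal replicate numbers share mice, and deviations of same-numbered libraries correlated at -0.0317 to 0.0695 across genes. With the replicate block, 4330 genes were called against 4291, and no member's call changed. No paired test of the ratios was run; the exact sign-flip test, the paired form of the test used, gives no p below 0.0625 with 5 pairs.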
